A study of Mus musculus with 9 samples.

Results

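The genes described here encode the olfactory heterotrimeric G protein and the channels that odorant detection opens: the subunit genes Gnal, Gnb1 and Gng13, the exchange factor gene Ric8b, the cyclic nucleotide-gated channel genes Cnga2, Cnga4 and Cngb1, the chloride channel gene Ano2, the channel modulator gene Stoml3 and the chloride loader gene Slc12a2. The 10 genes were picked by name from textbook knowledge of the cascade, but with earlier results of these data known. All 10 were found among the 55291 genes of the deposited tables. RNA came from sorted mature olfactory sensory neurons of mice carrying Olfr1507-IRES-GFP, Olfr73-IRES-GFP or Olfr160-IRES-mCherry, alleles in which an internal ribosome entry site joins a fluorescent reporter to an odorant receptor gene. The groups are called Olfr1507, Olfr73 and Olfr160 after the tagged receptor, with 3 libraries each and 9 in all. They compare cells sorted for different tagged receptors. The tagged allele and the cell makeup of the libraries also differ between groups, so receptor choice cannot be told apart from them. Cells of all groups came from papain-dissociated main olfactory epithelium and were collected for a bright reporter and little DAPI, a dye that enters dead cells. The labels give no age, sex or zygosity and do not tie libraries to animals, and the series text speaks of duplicates. All p-values therefore measure only the spread between these libraries, which may be technical. No group without a tagged allele was analysed here, and the reporter colour differs between Olfr160 and the other groups.

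In the cilia of an olfactory sensory neuron, a receptor that binds an odorant activates the G protein Golf, whose alpha subunit is made from Gnal and whose beta and gamma partners are made from genes such as Gnb1 and Gng13. Golf switches on adenylyl cyclase (Adcy3), and the cyclic AMP it makes opens a channel built from CNGA2, CNGA4 and CNGB1, which lets in sodium and calcium. Calcium opens the chloride channel ANO2, and chloride leaves the cell because the cotransporter NKCC1, the product of Slc12a2, has loaded the neuron with it. RIC8B acts as a chaperone and exchange factor for the Golf alpha subunit, and STOML3 is a membrane protein of the stomatin family found in these cilia.

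Upstream sequences of 4 of the genes are given because these genes spanned the patterns of the results: Cnga2, Cngb1 and Stoml3 were higher in Olfr1507 than in both other groups, and Gnb1 was not. Each is the 250 bases before the transcription start in RefSeq on GRCm38.p6, written 5′ to 3′ on the strand of the gene, with any match to CCCNNGGG in capitals. This is the core of the site bound by Olf/EBF factors, which were found through the promoters of olfactory genes. The regions are chrX:71991599-71991848 (plus strand) for Cnga2, chr8:95306586-95306835 (minus strand) for Cngb1, chr3:53488457-53488706 (plus strand) for Stoml3 and chr4:155491111-155491360 (plus strand) for Gnb1.
Cnga2: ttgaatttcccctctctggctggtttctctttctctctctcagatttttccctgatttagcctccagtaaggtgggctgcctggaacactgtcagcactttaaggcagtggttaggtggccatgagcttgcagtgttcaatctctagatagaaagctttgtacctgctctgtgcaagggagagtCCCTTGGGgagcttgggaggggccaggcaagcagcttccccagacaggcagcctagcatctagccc
Cngb1: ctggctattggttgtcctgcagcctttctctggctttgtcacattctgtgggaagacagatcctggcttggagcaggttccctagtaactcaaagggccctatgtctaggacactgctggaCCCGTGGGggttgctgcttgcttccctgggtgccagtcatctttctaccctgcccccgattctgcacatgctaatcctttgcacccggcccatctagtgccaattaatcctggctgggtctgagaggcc
Stoml3: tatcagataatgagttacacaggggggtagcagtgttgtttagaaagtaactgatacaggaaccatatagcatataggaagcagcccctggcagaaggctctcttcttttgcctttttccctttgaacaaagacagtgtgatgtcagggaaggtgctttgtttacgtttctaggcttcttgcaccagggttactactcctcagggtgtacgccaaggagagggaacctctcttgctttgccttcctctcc
Gnb1: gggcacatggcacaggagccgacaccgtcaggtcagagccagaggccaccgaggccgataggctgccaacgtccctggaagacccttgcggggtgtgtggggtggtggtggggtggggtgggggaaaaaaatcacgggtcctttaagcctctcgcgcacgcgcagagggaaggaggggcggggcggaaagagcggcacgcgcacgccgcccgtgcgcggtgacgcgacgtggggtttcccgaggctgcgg
The match began 66 bases before the start of Cnga2 and 129 bases before that of Cngb1, and the windows of Stoml3 and Gnb1 held none. In windows that also took in 50 bases after the start, CCCNNGGG, which reads the same on both strands, was present for 15.4% of 27025 genes and for 5 of the 8 members searched (Gng13, Cnga2, Cnga4, Cngb1 and Ano2). The core with a T before it and an A after it was present for 1.06% of genes, and the homeodomain-type TAATTA for 6.12%, in each case for 0 of the 8 members. The windows of Gnal and Slc12a2 were not searched. These matches describe letters in a window, and the series holds no binding data.

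Libraries held 17212807 to 36230606 counts. The tagged receptor took 85.1% to 94.7% of all counts on Olfr genes in Olfr1507, 22.8% to 32.8% in Olfr73 and 2.08% to 10.1% in Olfr160, so most Olfr counts of the Olfr73 and Olfr160 libraries lay on other receptors. The Olfr160 gene itself had 3131 to 16531 counts there, against 6 to 119 in the other groups. Markers of sustentacular and gland cells (15 genes) took 0.0253% to 0.0430% of counts in Olfr1507, 0.371% to 0.646% in Olfr73 and 1.97% to 3.52% in Olfr160, and 8 mature neuron genes outside the 10 members took 3.34% to 3.66%, 2.65% to 2.84% and 1.62% to 2.46% in the same order of groups. Of the 15 sustentacular and gland markers, 15 were lower in Olfr1507 than in Olfr160, 13 were lower in Olfr1507 than in Olfr73, and 12 were lower in Olfr73 than in Olfr160, with none of them at 0 in every library of a group. The labelled cell type was marked by Omp, the olfactory marker protein gene, at a mean of 20414 TPM in Olfr1507, 15604 TPM in Olfr73 and 10701 TPM in Olfr160. In sorted bulk RNA, fewer neurons in a sample and less of an RNA per neuron cannot be told apart.

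**Figure D1:**
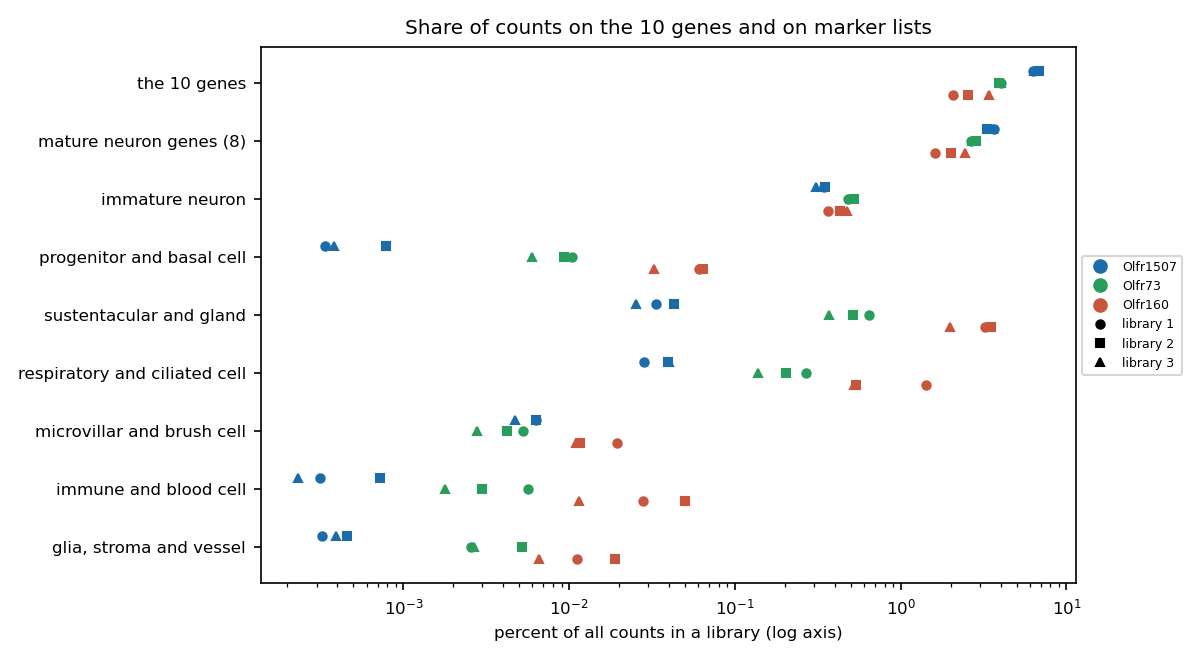
Percent of all counts in each library (log axis) on the 10 genes and on 8 lists of cell type genes, coloured by group, with the marker shape giving the library. The Olfr160 libraries sit to the left of the others for the 10 genes, at 2.07% to 3.43%, and to the right for the sustentacular and gland markers, at 1.97% to 3.52%.

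The 10 genes together took 6.32%, 6.82% and 6.39% of all counts in Olfr1507 libraries 1 to 3, 4.03%, 3.93% and 4.02% in Olfr73, and 2.07%, 2.54% and 3.43% in Olfr160. The groups did not overlap, and the Olfr160 libraries differed most among themselves. All 10 members passed the low-count filter and the test over the 3 groups (edgeR quasi-likelihood F test, Benjamini-Hochberg adjusted p from 0.00013 for Stoml3 to 0.019 for Gng13), as did 50.8% of the 16399 genes tested. In Olfr1507 over Olfr160, 10 of 10 were higher and 0 were lower (6 and 0 with libraries scaled to the mature neuron genes), beside 48.4% of all tested genes called (20.7% higher and 27.7% lower). Median log2 fold changes were 1.55 for the 10 and -0.14 for all tested genes. In Olfr1507 over Olfr73, 6 were higher, 0 were lower and 4 did not pass (4 higher and 2 lower under that scaling), beside 34.4% of all tested genes called (14.5% higher and 19.9% lower), with medians of 1.00 and -0.15. In Olfr73 over Olfr160, 5 were higher, 0 were lower and 5 did not pass (3 higher and 1 lower under that scaling), beside 17.9% called (7.45% higher and 10.5% lower), with medians of 0.58 and -0.01. The count of 5 depended on single libraries: it was 9 without Olfr160 library 3, 4 without Olfr160 library 1, 2 without Olfr160 library 2 or Olfr73 library 2, and 3 without any of the other libraries. The percents and medians above are for TMM scaling. With libraries scaled to the mature neuron genes, 216 of the 16399 tested genes were higher and 12328 lower in Olfr1507 over Olfr160. These numbers were 434 and 6759 in Olfr1507 over Olfr73, and 128 and 3785 in Olfr73 over Olfr160. At an unadjusted p under 0.05 in edgeR, and with DESeq2 or limma-voom at the adjusted threshold, 0 members were lower in any comparison. In normalised CPM, which sets counts against the TMM-adjusted depth of a library but not against length, 10 members lay higher without overlap in Olfr1507 than in Olfr160, beside 29.0% of tested genes higher and 36.8% lower in this way. In Olfr1507 over Olfr73, 8 lay higher and 1, Gnb1, lower without overlap, beside 22.7% and 24.9%. In Olfr73 over Olfr160, 6 lay higher without overlap, beside 17.2% higher and 23.8% lower. The 8 mature neuron genes outside the members had median log2 fold changes with TMM scaling of 1.29 in Olfr1507 over Olfr160, 0.83 in Olfr1507 over Olfr73 and 0.45 in Olfr73 over Olfr160. Of these 8 genes, 7, 5 and 2 were called higher in the same order and 0 lower. Higher levels in Olfr1507 were thus not particular to the 10 members. The 3 comparisons share libraries and are not independent of each other. In these comparisons 0 of the 15 sustentacular and gland markers were higher, and their part in these results was not tested beyond the rescaling to mature neuron genes described with the fold changes.

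**Figure D2:**
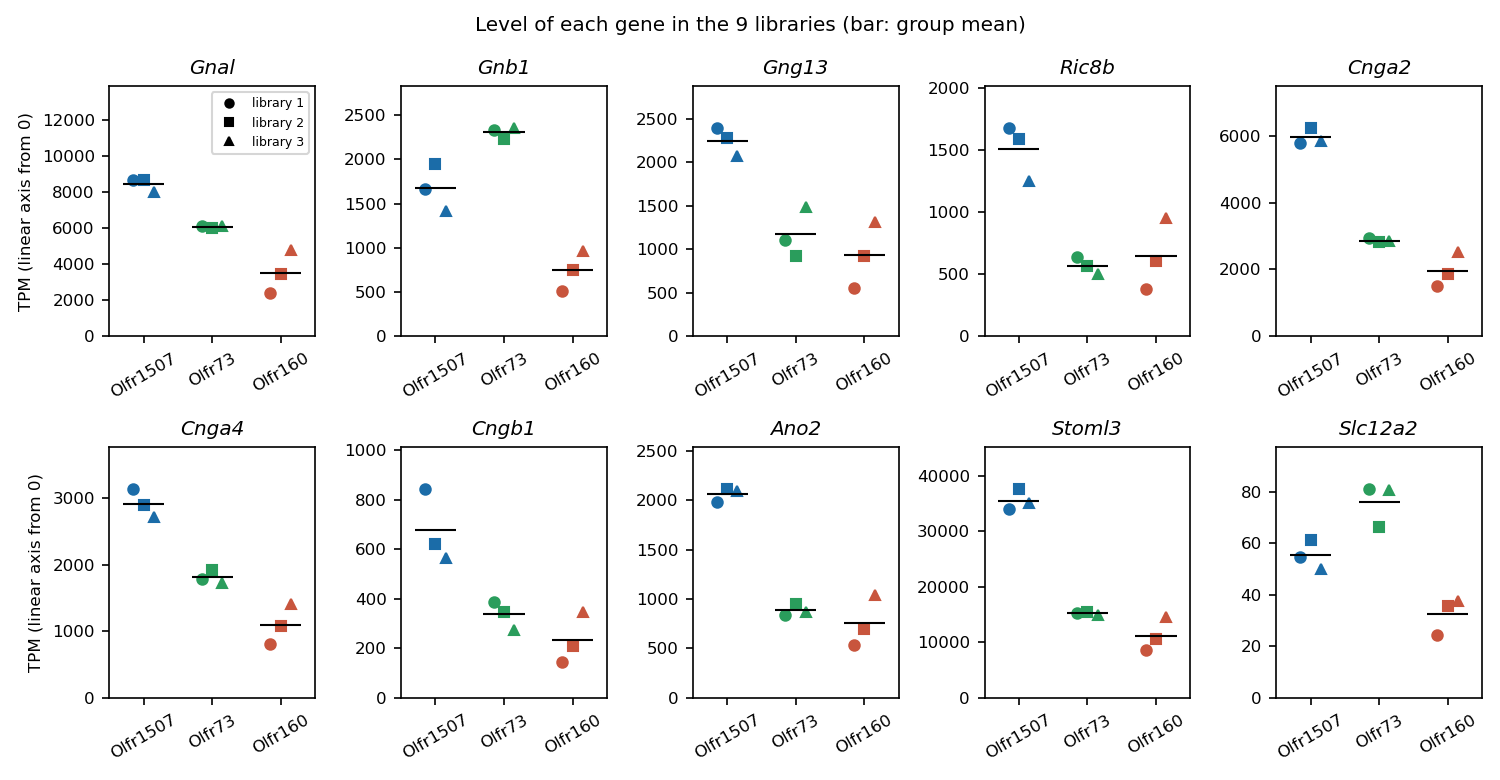
Level of each of the 10 genes in TPM (linear axes from 0, each with its own range) in the 9 libraries, with the group mean as a bar. Stoml3 reaches 33983 to 37539.5 TPM in Olfr1507, while Gnb1 and Slc12a2 are highest in Olfr73.

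Gnal (chr18:67088216-67226792, plus strand, GENCODE M21 on GRCm38) had 8699, 8669.5 and 8012 TPM in Olfr1507, 6136, 5998 and 6120.3 TPM in Olfr73, and 2376, 3469 and 4781 TPM in Olfr160. TPM is a level scaled by transcript length and library depth, so it allows genes to be compared within a library. The groups did not overlap, with Olfr1507 highest and Olfr160 lowest. On normalised counts, Gnal was 2.79-fold higher in Olfr1507 than in Olfr160 (log2 fold change 1.48 with a standard error (SE) of 0.23, adjusted p = 0.00083 in edgeR), and ± gives the SE in the fold changes that follow. Between Olfr73 and Olfr160 the log2 fold change was 0.83 ± 0.23 (edgeR adjusted p = 0.034), but the call was lost in 7 of the 9 fits that left out a library, all but those without Olfr160 library 1 or 3, with an adjusted p of up to 0.11 without Olfr160 library 2. Between Olfr1507 and Olfr73 it was 0.65 ± 0.22 and lay just outside the threshold (edgeR adjusted p = 0.0505), and it was called without Olfr160 library 1 (adjusted p = 0.0044) or library 3 (adjusted p = 0.012). Gnal overlaps the coding genes Chmp1b and, on the opposite strand, Mppe1, and the sources used here do not say whether counting used strand.

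Gnb1 (chr4:155491361-155559269), a beta subunit gene, had 1669, 1949 and 1419.8 TPM in Olfr1507, 2334, 2228 and 2358 TPM in Olfr73, and 516, 753 and 968 TPM in Olfr160. Unlike Gnal, it was highest in Olfr73, and the groups did not overlap. Gnb1 was 2.56-fold higher in Olfr1507 than in Olfr160 (log2 difference 1.35 ± 0.22, edgeR adjusted p = 0.0010) and 3.08-fold higher in Olfr73 than in Olfr160 (1.62 ± 0.22, adjusted p = 0.0031). Olfr1507 over Olfr73 gave -0.27 ± 0.21 and did not pass (adjusted p = 0.35). An antisense gene model, Gm13171, overlaps Gnb1.

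Gng13 (chr17:25717171-25719406), a gamma subunit gene, had 2396, 2273 and 2073.5 TPM in Olfr1507, 1108, 918 and 1486 TPM in Olfr73, and 557, 923 and 1312 TPM in Olfr160. These levels rest on only 281 to 1328 counts per library, and its transcripts of 347 and 719 bases have a very short effective length in these tables: that of Cnga2 was a median of 88.4 times longer. Its TPM is thus far less certain than that of the other genes and is not ranked against them here. Olfr1507 lay above both other groups, which overlapped. Gng13 was 2.26-fold higher in Olfr1507 than in Olfr160 on normalised counts (log2 difference 1.18 ± 0.29, edgeR adjusted p = 0.0084). The differences of 0.68 ± 0.28 in Olfr1507 over Olfr73 (adjusted p = 0.089) and 0.50 ± 0.28 in Olfr73 over Olfr160 (adjusted p = 0.25) did not pass. Leaving out Olfr160 library 3 brought both under the threshold (adjusted p = 0.036 and 0.040), as did leaving out Olfr73 library 3 for Olfr1507 over Olfr73 (adjusted p = 0.034). The coding gene Chtf18 lies antisense to it.

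Ric8b (chr10:84917616-85018337), whose product folds and activates the Golf alpha subunit, had 1681, 1592 and 1249 TPM in Olfr1507, 638, 565 and 505 TPM in Olfr73, and 384, 607 and 951 TPM in Olfr160. Olfr1507 lay above the others, and the Olfr73 values lay within the range of Olfr160. Ric8b was 2.89-fold higher in Olfr1507 than in Olfr73 (log2 fold change 1.53 ± 0.28, edgeR adjusted p = 0.0034), more than any other member in this comparison, and 2.63-fold higher in Olfr1507 than in Olfr160 (1.40 ± 0.28, adjusted p = 0.0032). Olfr73 over Olfr160 gave -0.14 ± 0.27 (adjusted p = 0.77), and 0.24 without Olfr160 library 3.

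Cnga2 (chrX:71991849-72010218), the principal subunit gene of the cyclic nucleotide-gated channel, had 5783, 6247 and 5839.7 TPM in Olfr1507, 2928, 2819 and 2845 TPM in Olfr73, and 1508, 1872 and 2518 TPM in Olfr160. The groups did not overlap, and the lowest Olfr1507 library lay well above the highest of the others. Cnga2 was 3.48-fold higher in Olfr1507 than in Olfr160 (log2 difference 1.80 ± 0.18, edgeR adjusted p = 7.5e-05) and 2.33-fold higher in Olfr1507 than in Olfr73 (1.22 ± 0.18, adjusted p = 0.0011). In Olfr73 over Olfr160 it passed narrowly (0.58 ± 0.17, adjusted p = 0.048), and the call was lost in 8 of the 9 fits that left out a library, with an adjusted p of up to 0.15 without Olfr160 library 2, and kept without Olfr160 library 3 (adjusted p = 0.0050).

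Cnga4 (chr7:105404568-105408742), a modulatory subunit gene that tunes the calcium feedback on the channel, had 3134, 2893 and 2724 TPM in Olfr1507, 1784, 1922 and 1731 TPM in Olfr73, and 806, 1070.4 and 1405 TPM in Olfr160. The 3 groups were again separate and in the same order as for Cnga2. The log2 fold changes were 1.62 ± 0.18 in Olfr1507 over Olfr160, 0.85 ± 0.18 in Olfr1507 over Olfr73 and 0.77 ± 0.18 in Olfr73 over Olfr160, and all passed (edgeR adjusted p = 0.00015, 0.0067 and 0.020). The last of these was lost without Olfr73 library 2 (adjusted p = 0.053) or Olfr160 library 2 (adjusted p = 0.080). Cngb1 (chr8:95239045-95306585, minus strand), whose product is the beta subunit that helps carry the channel into cilia, was the lowest of the channel subunit genes. It had 843, 621 and 564 TPM in Olfr1507, 387, 348 and 275 TPM in Olfr73, and 143, 210 and 348 TPM in Olfr160. Olfr1507 lay above both other groups, whose ranges overlapped. Cngb1 was 3.32-fold higher in Olfr1507 than in Olfr160 (1.73 ± 0.29, edgeR adjusted p = 0.0013) and 2.22-fold higher in Olfr1507 than in Olfr73 (1.15 ± 0.29, adjusted p = 0.014). That second call was lost without Olfr1507 library 1 (adjusted p = 0.055). Olfr73 over Olfr160 gave 0.58 ± 0.28 (adjusted p = 0.18), and 0.98 without Olfr160 library 3 (adjusted p = 0.020).

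Ano2 (chr6:125690419-126040126), the calcium-activated chloride channel gene, had 1983, 2111 and 2093 TPM in Olfr1507, 836, 951 and 863 TPM in Olfr73, and 529.96, 693 and 1039 TPM in Olfr160. Olfr1507 was separate from the others, and Olfr73 lay inside the range of Olfr160. Ano2 was 3.09-fold higher in Olfr1507 than in Olfr160 (log2 difference 1.63 ± 0.22, edgeR adjusted p = 0.00037) and 2.67-fold higher in Olfr1507 than in Olfr73 (1.42 ± 0.22, adjusted p = 0.0014). Olfr73 over Olfr160 gave 0.21 ± 0.21 (adjusted p = 0.52), and 0.51 without Olfr160 library 3 (adjusted p = 0.030). The gene models Gm16303 and Gm24947 overlap Ano2 on the same strand.

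Stoml3 (chr3:53488653-53508502) had by far the highest TPM of the 9 members ranked and stood at rank 1 to 7 among all genes in every library. It had 33983, 37539.5 and 34986 TPM in Olfr1507, 15199.9, 15461 and 14827 TPM in Olfr73, and 8496.5, 10568 and 14509 TPM in Olfr160. The groups did not overlap, although the highest Olfr160 library came close to Olfr73. Stoml3 was 3.66-fold higher in Olfr1507 than in Olfr160 (log2 difference 1.87 ± 0.19, edgeR adjusted p = 7.7e-05), more than any other member, and 2.605-fold higher in Olfr1507 than in Olfr73 (1.38 ± 0.18, adjusted p = 0.00073). Olfr73 over Olfr160 gave 0.49 ± 0.18 and did not pass (adjusted p = 0.091), but passed without Olfr160 library 3 (0.71, adjusted p = 0.0081).

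Slc12a2 (chr18:57878678-57946821), whose product loads the neuron with chloride, had the lowest TPM of the 9 members ranked. It had 54.8, 61.1 and 49.9 TPM in Olfr1507, 81.0, 66.3 and 80.6 TPM in Olfr73, and 24.3, 35.6 and 37.7 TPM in Olfr160. The groups were separate in TPM, and like Gnb1 it was highest in Olfr73. Slc12a2 was 2.39-fold higher in Olfr73 than in Olfr160 (log2 fold change 1.26 ± 0.18, edgeR adjusted p = 0.0035) and 1.99-fold higher in Olfr1507 than in Olfr160 (0.99 ± 0.18, adjusted p = 0.0017). Olfr1507 over Olfr73 gave -0.27 ± 0.17 and did not pass (adjusted p = 0.25), and in normalised CPM those groups overlapped.

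The scaling of the libraries set how large these differences were. TMM scaling put the median of all tested genes at -0.14 in Olfr1507 over Olfr160, scaling by library size alone at -0.56, and scaling to the 8 mature neuron genes at -1.40, and the share of calls that were higher was 42.8%, 17.7% and 1.72%. Under scaling to the mature neuron genes, 6 members remained higher in Olfr1507 than in Olfr160: Stoml3 (log2 fold change 0.67), Cnga2 (0.60), Cngb1 (0.57), Ano2 (0.44), Cnga4 (0.42) and Gnal (0.30). Gnb1 (0.17), Ric8b (0.24), Gng13 (-0.0037) and Slc12a2 (-0.22) did not pass. In Olfr1507 over Olfr73, Ric8b (0.85), Ano2 (0.74), Stoml3 (0.70) and Cnga2 (0.54) remained higher, while Gnb1 and Slc12a2 (both -0.95) were lower, as they were by library size alone (both -0.59). The values of Gnb1 and Slc12a2 lay near the median of all tested genes in this comparison. That median was -0.84 under scaling to the mature neuron genes and -0.47 by library size alone. In Olfr73 over Olfr160 under scaling to the mature neuron genes, Gnb1 (1.12), Slc12a2 (0.74) and Gnal (0.34) were higher and Ric8b (-0.61) was lower. The median of all tested genes was then -0.60, near the value of Ric8b.

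**Figure D3:**
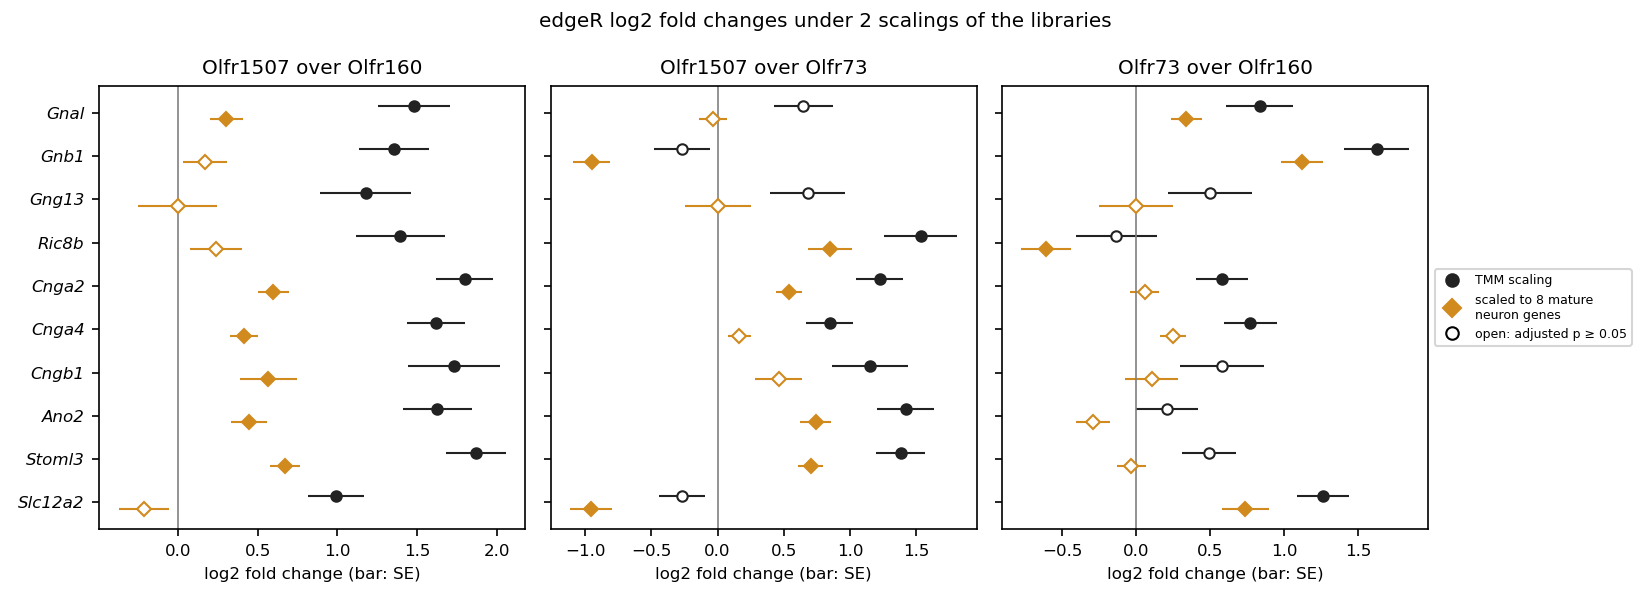
Log2 fold change (horizontal axis, bar: SE) of the 10 genes in the 3 comparisons, with TMM scaling (circles) and with libraries scaled to 8 mature neuron genes (diamonds), filled where the edgeR adjusted p was under 0.05. Under the second scaling Gnb1 and Slc12a2 lie at -0.95 in Olfr1507 over Olfr73 while Ric8b, Cnga2, Ano2 and Stoml3 stay above 0. The median of all tested genes in that comparison and scaling is -0.84.

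Ratios of TPM within a library do not depend on its scaling, and 25 of them were compared. An exact permutation test over all 1680 assignments of the 9 libraries to the groups asked whether a log2 ratio differed between groups (smallest possible p = 0.0036), with Benjamini-Hochberg adjustment over the 25, and 18 passed. An exact test of a single pair of groups cannot go below 0.1, so pairs are given as sizes only. Leaving out a library gave 13 to 19 passing ratios, with 13 without Olfr1507 library 1, Olfr1507 library 3 or Olfr73 library 3.

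Within the G protein, the ratio of Gnal to Gnb1 was 5.21, 4.45 and 5.64 in Olfr1507, 2.63, 2.69 and 2.596 in Olfr73, and 4.60, 4.61 and 4.94 in Olfr160. Olfr73 lay apart from both other groups, which overlapped (exact permutation adjusted p = 0.024, and 0.051 without Olfr1507 library 3). The ratio of Gnal to Ric8b was 5.18, 5.44 and 6.42 in Olfr1507, 9.61, 10.6 and 12.1 in Olfr73, and 6.18, 5.71 and 5.03 in Olfr160. Olfr73 was again apart (adjusted p = 0.0496 by the exact permutation test), a call that was lost in 4 of the 9 repeats that left out a library: each Olfr73 library (adjusted p = 0.060, 0.055 and 0.056) and Olfr160 library 2 (0.050). Gnal to Gng13 did not pass (exact permutation adjusted p = 0.077). Gnb1 to Gng13 passed (exact permutation adjusted p = 0.021, and up to 0.045 when a library was left out). Its geometric means were 0.742 in Olfr1507, 2.01 in Olfr73 and 0.823 in Olfr160, with Olfr73 apart. Both ratios carry the uncertain TPM of Gng13.

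Within the channel, the ratio of Cnga2 to Cnga4 was 1.84, 2.16 and 2.14 in Olfr1507, 1.64, 1.47 and 1.64 in Olfr73, and 1.87, 1.75 and 1.79 in Olfr160, and differed over the groups (exact permutation adjusted p = 0.021, and 0.061 without Olfr73 library 2). Olfr73 was lowest, without overlap. The ratio of Cnga2 to Cngb1 had geometric means of 8.94 in Olfr1507, 8.60 in Olfr73 and 8.80 in Olfr160, and ranged from 6.86 to 10.6 over all libraries. It did not differ beyond the spread of the libraries (exact permutation adjusted p = 0.99), and Cnga4 to Cngb1 did not pass either (adjusted p = 0.31).

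Between steps of the cascade, the ratio of Cnga2 to Gnal was 0.665, 0.721 and 0.729 in Olfr1507, 0.477, 0.470 and 0.465 in Olfr73, and 0.635, 0.540 and 0.527 in Olfr160. The groups did not overlap (exact permutation adjusted p = 0.015). The ratio of Ano2 to Slc12a2, the chloride exit channel to the chloride loader, was 36.2, 34.6 and 42.0 in Olfr1507, 10.3, 14.4 and 10.7 in Olfr73, and 21.9, 19.5 and 27.6 in Olfr160. These groups were likewise separate (exact permutation adjusted p = 0.015 over the 3 groups). The geometric mean was 3.21-fold higher in Olfr1507 than in Olfr73. Cnga2 to Stoml3 stayed within 0.166 and 0.193 over all 9 libraries, and still differed between groups (adjusted p = 0.015 by the exact permutation test), with geometric means of 0.168 in Olfr1507, 0.189 in Olfr73 and 0.176 in Olfr160.

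**Figure D4:**
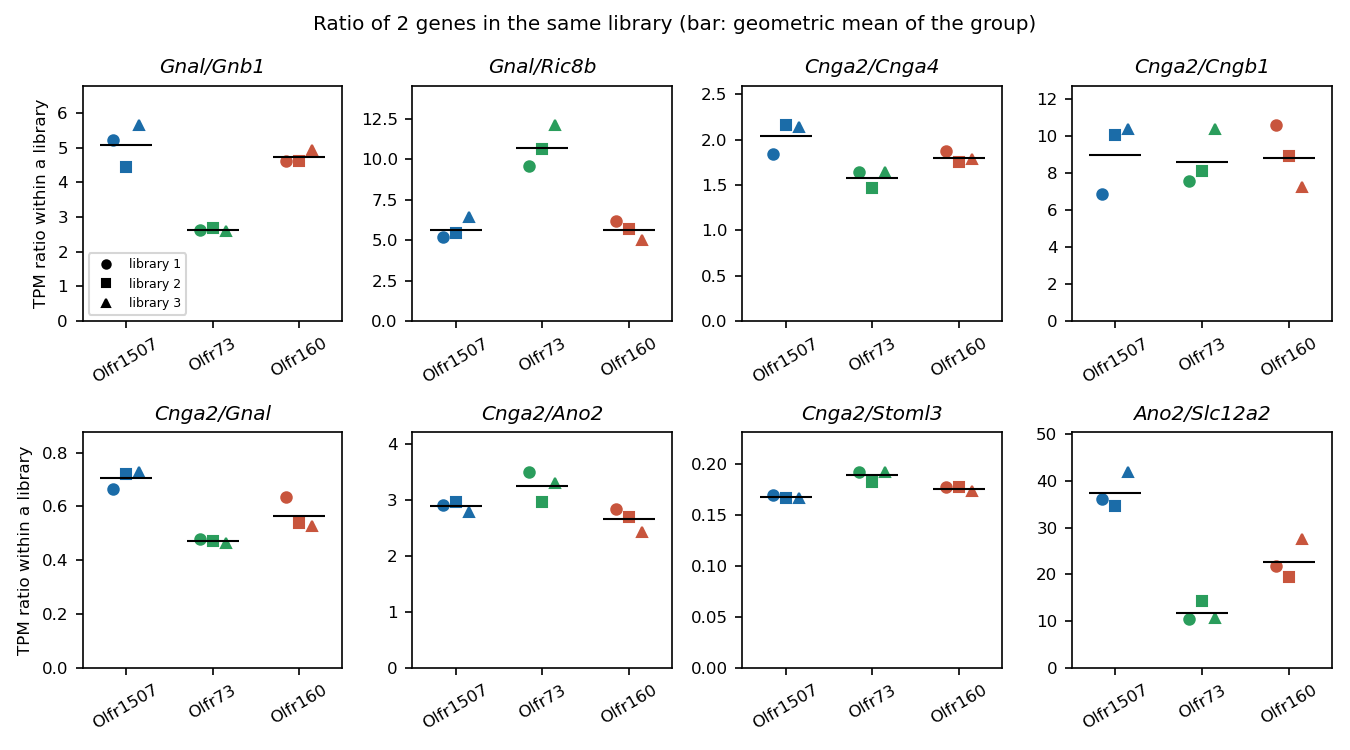
Ratio of the TPM of 2 genes in the same library (linear axes from 0), by group, with the geometric mean of the group as a bar. Gnal to Gnb1 is lowest in Olfr73, at 2.596 to 2.69, whereas Cnga2 to Cngb1 overlaps in all groups.

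Set against Omp in the same library, Stoml3 had geometric mean ratios of 1.74 in Olfr1507, 0.973 in Olfr73 and 1.04 in Olfr160, and Ano2 of 0.101, 0.0566 and 0.0691 in the same groups (exact permutation adjusted p = 0.021 and 0.015). Gnb1 to Omp was 0.0817 in Olfr1507, 0.148 in Olfr73 and 0.0688 in Olfr160, with Olfr73 highest (adjusted p = 0.021 by the exact permutation test, lost without Olfr73 library 1 or 3 at 0.073 and 0.066). Slc12a2 to Omp showed the same order at the top, with 0.00270 in Olfr1507, 0.00485 in Olfr73 and 0.00304 in Olfr160 (exact permutation adjusted p = 0.021, lost without Olfr1507 library 1 or 3 at 0.056 and 0.058). Ric8b to Omp was lowest in Olfr73, with 0.0734 in Olfr1507, 0.0364 in Olfr73 and 0.0577 in Olfr160 (exact permutation adjusted p = 0.021, lost without Olfr1507 library 1 at 0.051, Olfr73 library 2 at 0.055 and Olfr73 library 3 at 0.066). Gng13 to Omp (adjusted p = 0.11) and Cngb1 to Omp (adjusted p = 0.097) did not pass the exact permutation test.

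Gnas, the gene of the related stimulatory alpha subunit, averaged 9.03 TPM in Olfr1507, 11.4 TPM in Olfr73 and 51.3 TPM in Olfr160, so that Gnal to Gnas had a geometric mean of 977 in Olfr1507, 568 in Olfr73 and 68.3 in Olfr160 (exact permutation adjusted p = 0.021). Within Olfr160 the ratio was 37.2, 63.2 and 135.7 in libraries 1 to 3, and library 3 had the lowest share of sustentacular and gland markers there. The part of cell makeup in the Gnas levels and this ratio was not tested. Gnas was lower in Olfr1507 and in Olfr73 than in Olfr160 (both log2 fold change -2.28, edgeR adjusted p = 0.0012 and 0.0061). Of 12 tested G alpha relatives, 1 was higher and 6 were lower in Olfr1507 than in Olfr160, 1 was higher and 2 were lower in Olfr1507 than in Olfr73, and 0 were higher and 4 were lower in Olfr73 than in Olfr160. Gnao1, abundant in neurons, was the 1 higher in Olfr1507 than in Olfr160 (0.61 ± 0.14, adjusted p = 0.0066), which was not so by library size alone, where 0 were higher. Gnao1 was lower there under scaling to the mature neuron genes (-0.63, edgeR adjusted p = 0.014), and 0 G alpha relatives were higher in any comparison.

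Of 12 tested G beta and gamma relatives, 1 was higher and 7 were lower in Olfr1507 than in Olfr160. Gnb5, a beta subunit that pairs with RGS proteins, was the higher one, with 79.2 ± 4.0 TPM in Olfr1507, 44.7 ± 9.7 TPM in Olfr73 and 35.9 ± 8.9 TPM in Olfr160 (SD, n = 3 each, log2 fold change 1.35 ± 0.21 over Olfr160). The gamma genes Gng5, Gng8 and Gng12 were lower, at -1.44, -2.61 and -2.44 in Olfr1507 over Olfr160 (edgeR adjusted p = 0.0030, 0.0020 and 0.00013). Gng8 is also 1 of 13 immature neuron markers used here, and it had only 10 to 153 counts per library. Those markers took 0.309% to 0.350% of counts in Olfr1507, 0.478% to 0.525% in Olfr73 and 0.363% to 0.472% in Olfr160. Ncam1 weighed most in these shares, at a mean of 2974 CPM in Olfr1507, 3452 in Olfr73 and 1886 in Olfr160. Of the 13 markers, 3 were higher and 6 lower in Olfr1507 over Olfr160 with TMM scaling, beside 20.7% and 27.7% of all tested genes. In Olfr1507 over Olfr73 and in Olfr73 over Olfr160, 2 were higher and 5 lower. The part of neuron maturity was not tested. Of the 12 relatives, 1 was higher and 5 lower in Olfr1507 over Olfr73, and 0 higher and 2 lower in Olfr73 over Olfr160. Under scaling to the mature neuron genes they were 0 and 10 in Olfr1507 over Olfr160, 0 and 7 in Olfr1507 over Olfr73, and 0 and 4 in Olfr73 over Olfr160. Of all 16399 tested genes, 12328, 6759 and 3785 were lower under that scaling, in the same order. Gnb5 did not pass then (0.15 in Olfr1507 over Olfr160, edgeR adjusted p = 0.44). Ric8a, the relative of Ric8b that serves other alpha subunits, did not pass in any of the 3 comparisons and averaged 76.8 TPM in Olfr1507, 74.5 TPM in Olfr73 and 83.2 TPM in Olfr160. Under scaling to the mature neuron genes Ric8a was lower in Olfr1507 than in Olfr160 (-1.13), where the median of all tested genes was -1.40.

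Among channels, Cnga1, Cnga3 and Cngb3 did not pass the low-count filter. Of 11 tested channel and anoctamin relatives, 1 was higher and 5 were lower in Olfr1507 than in Olfr160, 1 was higher and 4 were lower in Olfr1507 than in Olfr73, and 1 was higher and 1 was lower in Olfr73 than in Olfr160. At an unadjusted p under 0.05, 0 G beta and gamma relatives and 1 G alpha relative were higher in Olfr73 than in Olfr160. Ano6, a lipid scramblase gene, averaged 5.45 TPM in Olfr1507, 30.8 TPM in Olfr73 and 37.1 TPM in Olfr160 and was lower in Olfr1507 than in both (-2.44 ± 0.15 over Olfr160 and -2.16 ± 0.14 over Olfr73, edgeR adjusted p = 1.1e-05 and 2.4e-05). Ano1, a chloride channel gene of gland and other epithelia, was lower in Olfr1507 as well (-4.97 over Olfr160, edgeR adjusted p = 0.00085). It averaged 0.397 TPM in Olfr1507, 4.37 TPM in Olfr73 and 16.8 TPM in Olfr160, an order shared with the sustentacular and gland markers. With libraries scaled to the mature neuron genes, 0 of these relatives were higher in any comparison, and 7, 4 and 3 were lower in Olfr1507 over Olfr160, Olfr1507 over Olfr73 and Olfr73 over Olfr160. In the same order, 12328, 6759 and 3785 of all 16399 tested genes were lower under that scaling.

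All 3 tested stomatin relatives of Stoml3 were higher in Olfr1507 than in Olfr160 and than in Olfr73, and 0 passed in Olfr73 over Olfr160 by edgeR (1 at an unadjusted p under 0.05). Stom, the stomatin gene, reached a mean of 14149.6 TPM in Olfr1507, 6814 TPM in Olfr73 and 5404 TPM in Olfr160, with log2 fold changes of 1.59 ± 0.17 in Olfr1507 over Olfr160 and 1.21 ± 0.17 over Olfr73 (edgeR adjusted p = 0.00013 and 0.0010). Under scaling to mature neuron genes Stom stayed higher in both (0.38 and 0.53), while 1 of the 3 relatives was lower in Olfr1507 than in Olfr160. Of 17 tested cation chloride cotransporters, exchangers and their kinases, 1 was higher and 8 were lower in Olfr1507 than in Olfr160, 0 were higher and 10 were lower in Olfr1507 than in Olfr73, and 3 were higher and 1 was lower in Olfr73 than in Olfr160. At an unadjusted p under 0.05, 0 were higher in Olfr1507 than in Olfr73. Slc12a7, a potassium chloride exporter gene, averaged 83.0 TPM in Olfr1507, 140.4 TPM in Olfr73 and 85.5 TPM in Olfr160, above Slc12a2 in each group. It was higher in Olfr73 than in Olfr160 (0.71 ± 0.19, edgeR adjusted p = 0.033), as was the kinase gene Wnk2 (1.15 ± 0.20, adjusted p = 0.0073). Neither passed under scaling to the mature neuron genes (0.19 and 0.59, edgeR adjusted p = 0.35 and 0.10). The list then had 0 higher and 14 lower in Olfr1507 over Olfr160, 0 and 12 in Olfr1507 over Olfr73, and 0 and 2 in Olfr73 over Olfr160. Beside these stood 12328, 6759 and 3785 of all 16399 tested genes lower, in the same order.

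**Figure D5:**
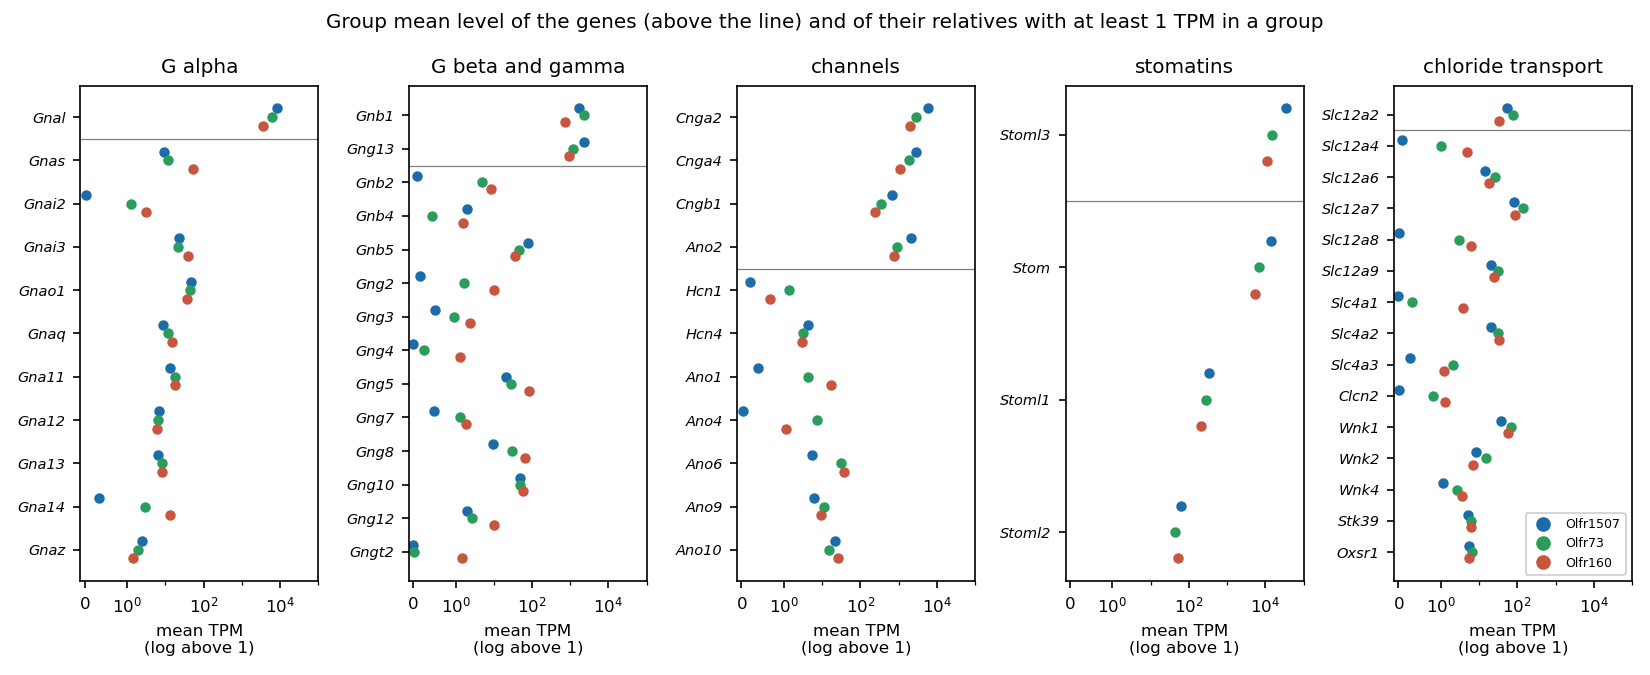
Group mean TPM (linear from 0 to 1, logarithmic above) of the members, drawn above the grey line in each panel, and of their relatives that reach 1 TPM in a group. Gnal lies at 3542 to 8459.97 TPM against 9.03 to 51.3 TPM for Gnas, and Slc12a2 lies below its relative Slc12a7 in each group.

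Of 27 other genes of the cascade and its feedback, 24 were tested. In Olfr1507 over Olfr160, 13 were higher and 5 lower (median 0.79), in Olfr1507 over Olfr73 5 were higher and 2 lower (median 0.19), and in Olfr73 over Olfr160 8 were higher and 2 lower (median 0.45), where all tested genes had medians of -0.14, -0.15 and -0.01. Under scaling to the mature neuron genes, several of which are on both lists, these counts became 3 and 15, 3 and 12, and 0 and 5. For all 16399 tested genes they were then 216 and 12328, 434 and 6759, and 128 and 3785. Omp was higher in Olfr1507 than in Olfr160 by 1.13 ± 0.17, less than 9 of the 10 members. Rgs2, which restrains G protein and cyclase signalling, was lower by 5.11 on the log2 scale (edgeR adjusted p = 0.00031), at 0.360 TPM in Olfr1507, 2.03 TPM in Olfr73 and 17.9 TPM in Olfr160. It was also lower in Olfr1507 than in Olfr73 (-2.31, edgeR adjusted p = 0.018) and in Olfr73 than in Olfr160 (-2.80, adjusted p = 0.013), the order of the sustentacular and gland markers, whose part was not tested. Slc8a1, a sodium calcium exchanger gene, averaged 0.647 TPM in Olfr1507, 12.3 TPM in Olfr73 and 5.21 TPM in Olfr160, and like Gnb1 and Slc12a2 was highest in Olfr73 (1.28 ± 0.27 in Olfr73 over Olfr160, edgeR adjusted p = 0.014, and 0.74 with adjusted p = 0.075 under scaling to the mature neuron genes).

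Over the 9 libraries, the log2 level of Cnga2 was followed most closely by Stoml3 (Pearson r 0.998), then by Kcna5, Elmod3, Cdkl4 and Plekhb1 (0.994 to 0.996), out of 9273 genes. The genes closest to Gnal were Wdr19, Pcyox1, Iqub, Sucla2 and Ak1 (0.991 to 0.996). These values describe likeness across libraries that fall into 3 groups of unequal cell makeup. Within groups, the coefficient of variation of normalised CPM was 4.59% in Olfr1507, 1.81% in Olfr73 and 35.2% in Olfr160 for Gnal, and 5.06%, 1.03% and 25.8% for Cnga2. In Olfr160, library 3 was highest for all 10 genes, and it also had the lowest share of sustentacular and gland markers in its group (1.97%, against 3.20% and 3.52% in libraries 1 and 2) and the highest share of its tagged receptor. Whether the spread within Olfr160 follows from that makeup was not tested.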

How the data were processed

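Polyadenylated RNA was sequenced from 9 libraries, 3 per group. Per the submitters' processing notes, reads were aligned to mm10 with STAR 2.6.1 and quantified with RSEM 1.3.1, and DESeq2 is listed without a version. Annotation release and strand setting are not given in the sources used here. Expected counts, as deposited, are RSEM estimates per gene, not normalised by the authors, and 4.06% to 5.54% of a library's values were not whole. The deposited TPM values, made by the authors with RSEM, add up alike in all libraries. Columns carry older receptor names, which were matched to the groups through RefSeq synonyms.

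Expected counts were rounded and fitted with edgeR 4.0.16 in R 4.3.3: filterByExpr by group (16399 genes), TMM scaling, and a robust quasi-likelihood test on all 9 libraries, adjusted over all tested genes with a threshold of 0.05. The SE is the log2 fold change divided by the square root of F. The fit was checked on simulated counts. Alternatives were RLE factors, library size alone, scaling to 8 mature neuron genes (Omp, Adcy3, Rtp1, Gfy, Pde1c, Pde4a, Umodl1 and Slc17a6), no filter, 5 CPM in 3 libraries, DESeq2 1.42.0, limma 3.58.1 (voom, and trend on log2 TPM with 1 or 0.1 added), counts left unrounded, the replicate block, a fit of the 6 libraries of a comparison, an adjusted p of 0.01, and leaving out each library. Ratios were compared by exact permutation coded directly in Python 3.11.15 with numpy 2.4.6, also as CPM ratios and with 1 or 0.1 TPM added. Scaling to the 8 mature neuron genes used their summed counts, in which Omp weighed most. Its mean was 23942 CPM in Olfr1507, 16486 in Olfr73 and 10933 in Olfr160, followed by Umodl1 at 9627, 4930.5 and 3743. Slc17a6 was highest in Olfr73 (1129 CPM, against 712 in Olfr1507 and 587 in Olfr160). This scaling and the ratios to Omp are therefore not independent checks. Counting error is small for all members but Gng13, and intervals for shares were not used.

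The members and gene lists were chosen with earlier results of these data known. All 10 members are reported. Of each list of relatives with at least 5 CPM in a group, values were open to up to 4 genes with the largest called change and 2 with the highest TPM, and for likeness to the 5 genes of highest correlation; the text gives part of these, and Chmp1b, Mppe1, Chtf18 and other overlapping genes are named only for their position. Coordinates come from GENCODE M21.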

Additional observations from a re-analysis of the deposited data

How the results depend on the processing

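Of 660 log2 fold changes of members under alternatives, 598 kept direction and call, 29 lost and 25 gained a call, and 8 reversed, and of 300 ratio differences 260 kept direction and call, 32 lost and 5 gained a call, and 3 reversed. Scaling to 8 mature neuron genes reversed 7 fold changes, none of which then passed: Gng13 (-0.0037) and Slc12a2 (-0.22) in Olfr1507 over Olfr160, Gnal (-0.035) and Gng13 (-0.00055) in Olfr1507 over Olfr73, and Gng13 (-0.0031), Ano2 (-0.29) and Stoml3 (-0.032) in Olfr73 over Olfr160. It gave 12544 genes called in Olfr1507 over Olfr160, with 6 members higher, 2 members lower in Olfr1507 over Olfr73 (2 also by library size alone), and 3 higher and 1 lower in Olfr73 over Olfr160. Ric8b in Olfr73 over Olfr160 ranged from -0.40 (without Olfr160 library 1) to 0.24 (without Olfr160 library 3) when a library was left out. The ratio of Cnga2 to Cngb1 in Olfr1507 minus Olfr73 became -0.029, -0.049 and -0.035 (log2) without Olfr1507 library 2, Olfr1507 library 3 and Olfr73 library 1, and ranged up to 0.25. The cause was not tested.

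Genes called at an adjusted p of 0.01 were 4969 in Olfr1507 over Olfr160, 2837 in Olfr1507 over Olfr73, 769 in Olfr73 over Olfr160 (2 members higher) and 4868 over any group, against 7939, 5640, 2936 and 8333 at 0.05. In Olfr1507 over Olfr73, limma-trend on TPM without a filter called 3481. In Olfr73 over Olfr160, limma-voom called 4453 genes, and the fit of only the 6 libraries compared called 2 members. Leaving out a library gave 6391 to 8890, 3657 to 5546 and 976 to 3062 genes in the 3 comparisons in this order, and 6471 to 8832 over any group. Members called higher were then 10 to 10, 5 to 8 and 2 to 9, and lower 0 to 0 in each. Gene counts moved most without Olfr1507 library 1 (3657), and in Olfr73 over Olfr160 without Olfr160 library 2 (976), Olfr160 library 1 (1408) and Olfr73 library 3 (1878).

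Replicate numbers did not pair the libraries: same-numbered deviations correlated at -0.19 to 0.13, and 3 of 9 libraries correlated best with their own number. With the replicate block, 7398, 4804 and 2485 genes were called, and 10, 7 and 5 members were higher. Depth limits Gng13 most among the members.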
